A study of Homo sapiens with 16 samples.

Results

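The genes followed here are targets of p53: MDM2, TP53INP1, SPATA18, TP53I3, ZMAT3, BTG2, GDF15, XPC and FAS. Their rows were taken by symbol, as the probe sets annotated with exactly 1 of these 9 symbols. The 9 genes were chosen with earlier results of these data known. Their counts beside those of all genes are therefore a description and not a test of p53 targets as a class. This found 30 probe sets for 8 of the genes, of 19775 genes measured in all, and BTG2 was not analysed here. The brightest probe set of a gene, by its mean on the 16 arrays, is called its main probe set, and the others are given beside it.

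RNA was measured on 16 arrays, 4 in each of 4 groups: MCF10A on vehicle, MCF10A with 2DG, MDA-MB-231 on vehicle and MDA-MB-231 with 2DG. MCF10A, an immortalized line of mammary epithelium, is known to carry wild-type p53, and the breast cancer line MDA-MB-231 is known to carry a mutant p53. 2DG, or 2-deoxy-glucose, is a glucose analogue that inhibits glycolysis. It was given at 50 mM for 24 h in medium with 17.5 mM glucose, and vehicle cells received water. MCF10A grew with horse serum, insulin, EGF, cholera toxin and hydrocortisone and MDA-MB-231 with fetal bovine serum, so line, medium and p53 status cannot be told apart. All values are log2 values made by the authors with RMA, a procedure that corrects background, normalizes arrays by quantiles and summarises the probes of a set.

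p53 is a transcription factor that is stabilised by DNA damage, ribosomal stress and other insults, and binds response elements near genes that halt the cell cycle, repair DNA or promote cell death. MDM2, itself a target, is the ubiquitin ligase that marks p53 for degradation and so closes a feedback loop. Mutations in the DNA-binding domain, which are frequent in breast cancer, impair this binding. Several targets are also switched on by other factors, and GDF15 in particular is known to respond to the stress factors ATF4 and CHOP.

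Sequences before annotated transcription starts are shown for MDM2 and FAS, since these were the members in which a p53 response element was found. RefSeq windows of the 250 bases before each start (GRCh38.p14) were searched for this 20-base element, taken as 2 adjoining copies of its 10-base consensus. The consensus reads alike on both strands, and up to 2 mismatches were allowed outside the fixed C and G of each copy. Of the 8 measured genes, 7 had a window, 13 windows in all, and 3 of the windows held an element, 2 overlapping windows of MDM2 and 1 of FAS. Over all genes, 85 of 35116 windows (0.24%) and 84 of 27305 genes (0.31%) did. In MDM2 the element lay before the second start, which is known as the p53-responsive promoter, and none was found before the first. In FAS it lay before a start downstream of the first. Capitals mark the element, and each sequence runs 5′ to 3′ on the plus strand, for MDM2 before the first start chr12:68807922-68808171, for MDM2 before the second start chr12:68808767-68809016 and for FAS chr10:88991181-88991430.
MDM2, first start: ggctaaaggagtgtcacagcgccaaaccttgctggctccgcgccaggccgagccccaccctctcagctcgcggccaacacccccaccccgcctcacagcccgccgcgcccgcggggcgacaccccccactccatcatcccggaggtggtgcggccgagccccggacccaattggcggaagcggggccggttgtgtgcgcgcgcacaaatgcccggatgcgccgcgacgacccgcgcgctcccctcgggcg
MDM2, second start: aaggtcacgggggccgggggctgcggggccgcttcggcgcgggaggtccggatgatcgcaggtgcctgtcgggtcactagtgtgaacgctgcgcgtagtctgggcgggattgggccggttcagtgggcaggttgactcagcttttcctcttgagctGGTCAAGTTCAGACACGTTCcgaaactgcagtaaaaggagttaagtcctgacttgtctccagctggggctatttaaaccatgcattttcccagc
FAS, downstream start: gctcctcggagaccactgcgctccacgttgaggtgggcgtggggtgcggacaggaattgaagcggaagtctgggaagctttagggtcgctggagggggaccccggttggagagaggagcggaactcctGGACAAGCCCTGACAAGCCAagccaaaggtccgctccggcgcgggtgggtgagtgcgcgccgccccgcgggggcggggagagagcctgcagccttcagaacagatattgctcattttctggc
The MDM2 element covered bases -94 to -75 before the start and the FAS element -122 to -103, each with 2 mismatches. In FAS the first copy matched the 10-base consensus fully, as did a copy in 5.57% of all windows. A match of letters is a description of the sequence and not a measured binding site, and the windows of XPC, ZMAT3, TP53I3, SPATA18 and GDF15 held no such run of letters, from which nothing follows about binding.

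By their main probe sets, all 8 measured p53 targets were higher with 2DG in MCF10A, and in MDA-MB-231 4 rose, 2 fell and 2 did not pass the test. The main probe sets of MDM2, GDF15, FAS and TP53I3 have IDs that mark probes shared with other transcripts. Without such probe sets TP53I3 had no value, and the other 7 genes were read by their brightest remaining probe set. Of these, 4 rose and 1 fell in MCF10A and 2 rose and 2 fell in MDA-MB-231. TP53INP1 rose 10.1-fold and GDF15 8.08-fold in MCF10A, followed by SPATA18 (2.98-fold), ZMAT3 (2.11-fold), FAS (1.51-fold), XPC (1.48-fold), MDM2 (1.23-fold) and TP53I3 (1.16-fold). In MDA-MB-231, GDF15 rose 5.80-fold and TP53INP1 1.99-fold, ZMAT3 and TP53I3 rose by less, XPC fell 2.07-fold and FAS fell 1.35-fold. Calls rest on limma with p-values adjusted by Benjamini-Hochberg across the whole table, at 0.05. By the same test 54.2% of all genes were called in MCF10A (29% higher, 25.2% lower) and 50.9% in MDA-MB-231 (25.5% higher, 25.4% lower), so a call alone was common. The arrays on vehicle and with 2DG did not overlap for 51.6% of all genes in MCF10A and 46.9% in MDA-MB-231. The median change of the 8 genes was 0.83 in MCF10A and 0.08 in MDA-MB-231, beside 0.0225 and 0.0275 for all genes. Array values are relative, so fewer cells of a kind and less RNA per cell cannot be told apart.

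**Figure D1:**
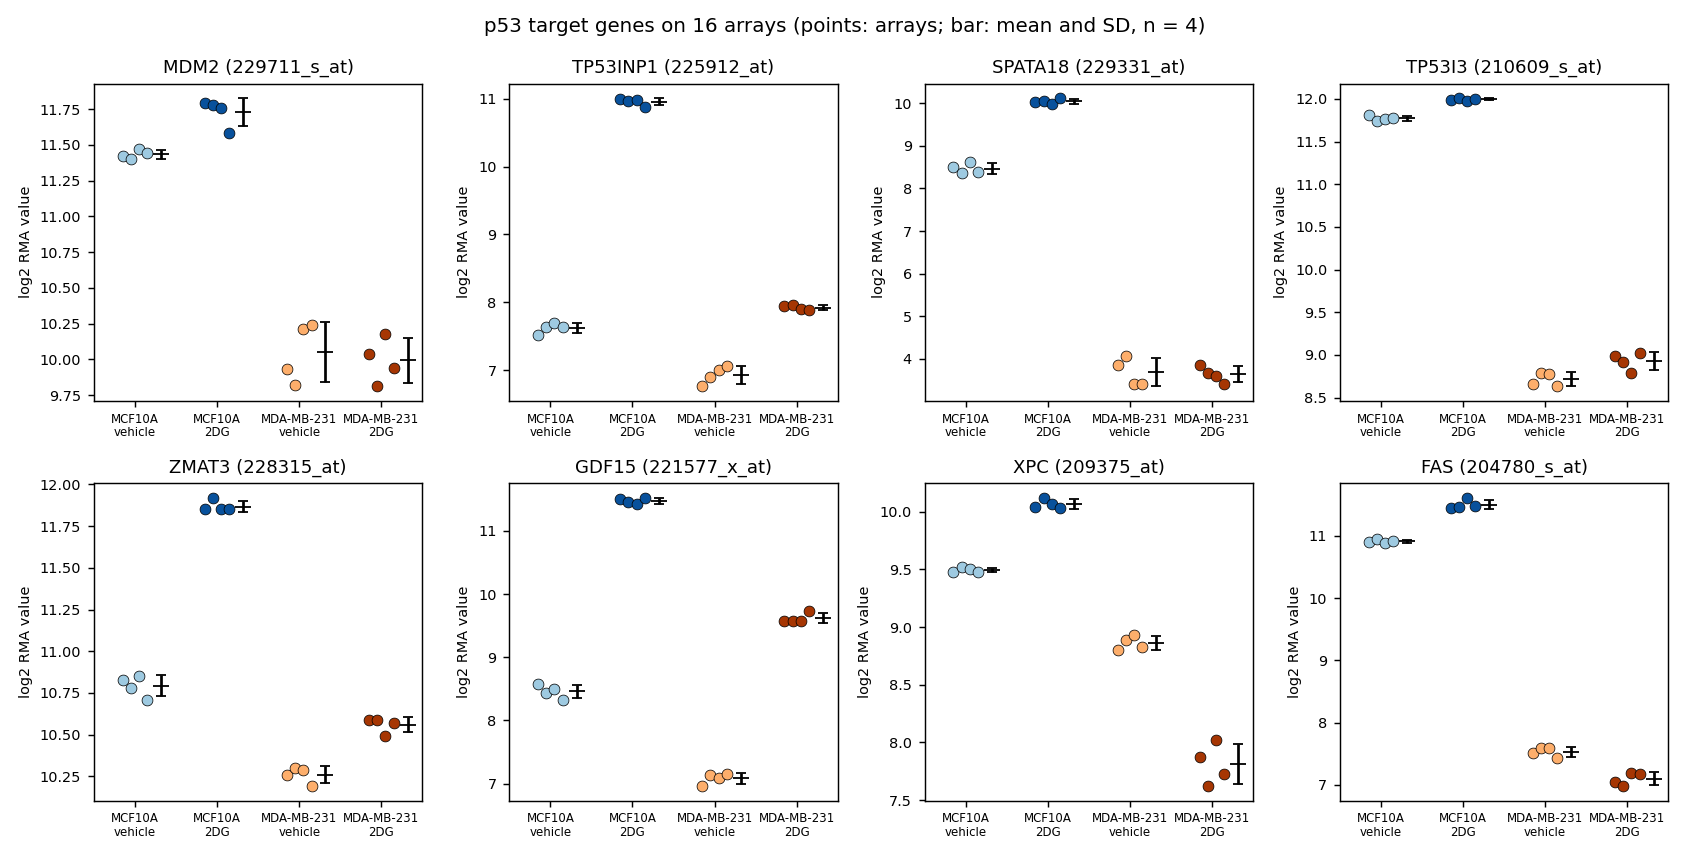
Log2 RMA value (vertical axis) of the main probe set of each gene on the 16 arrays, by group (horizontal axis); points are arrays and bars the mean and SD of 4 arrays. The MCF10A 2DG group is the highest for all 8 genes, and the vertical axes do not start at 0.

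The arrays themselves were alike, with medians between 6.17 and 6.22. Of 11 markers listed for MCF10A, all 7 that were measured were higher in MCF10A on vehicle, led by KRT14 (13.63 against 4.91). Of 8 markers listed for MDA-MB-231, 4 were higher in that line (ZEB1, AXL, MSN and VIM), while SPARC, TGFBI and, by 0.08, CD44 were higher in MCF10A and CAV1 did not pass. Of 3 hormone receptor genes, ESR1 and PGR were below the median of all genes (7.18) in all 4 groups, and 8 or 9 of 11 stromal and blood cell markers were too. The summed level of those 11 rose from 10.45-10.51 to 11.76-11.89 in MCF10A with 2DG, where COL1A1 and DCN rose most, and from 9.61-9.75 to 10.09-10.16 in MDA-MB-231. Their part in the results was not tested. The 3'/5' ratio of the actin control (log2), a sign of RNA integrity, was 0.393 ± 0.067 (SD, n = 4) in MCF10A on vehicle and 0.55 ± 0.0678 with 2DG. It was 0.597 ± 0.331 in MDA-MB-231 on vehicle and 1.03 ± 0.0714 with 2DG, so its mean was above that of vehicle in each line. MDA-MB-231 vehicle replicate B stood apart at 1.09, within the range with 2DG (0.97 to 1.13), while the other vehicle arrays read 0.38 to 0.47. Without it 4 members again rose and 2 fell in MDA-MB-231.

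MDM2 is the main brake on p53. Its main probe set read 11.42, 11.40, 11.47 and 11.44 on the MCF10A vehicle arrays (replicates A to D) and 11.79, 11.78, 11.76 and 11.58 with 2DG. The groups did not overlap, and the rise was 0.295 ± 0.0916 (SE, n = 4 per group, limma adjusted p = 0.0117). The MDA-MB-231 arrays read 9.93, 9.82, 10.21 and 10.24 on vehicle and 10.04, 9.81, 10.18 and 9.94 with 2DG. The groups there overlapped, and the change of -0.06 (95% interval -0.25 to 0.14, adjusted p = 0.652) did not pass. The responses differed by -0.35 ± 0.13 between the lines (MDA-MB-231 minus MCF10A, adjusted p = 0.0355). That call was lost in 10 of the 16 fits that left out an array, with an adjusted p of up to 0.0779, namely those without MCF10A vehicle A, B or D, MCF10A 2DG A, B or C, MDA-MB-231 vehicle C or D, or MDA-MB-231 2DG B or D. It was also lost with the actin ratio as a covariate (-0.25, adjusted p = 0.145).

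The 10 probe sets of MDM2 did not behave alike. In a fit over all probe sets, 5 rose in MCF10A and 5 did not pass. The largest rise was that of 238733_at, from 6.90 ± 0.124 (SD, n = 4) to 7.97 ± 0.189, by 1.075, and the dim 237891_at rose by 0.745, from 3.32 to 4.06. In MDA-MB-231, 238733_at and 205386_s_at rose by 0.38 and 0.445, and 217542_at fell by 0.71 (adjusted p = 4.66e-06). The last also had a change of -0.18 in MCF10A (adjusted p = 0.123), so the direction for MDM2 in MDA-MB-231 depended on the probe set. 217542_at is the brightest MDM2 probe set whose ID does not mark shared probes, and by this probe set MDM2 did not rise in MCF10A. The IDs of 238733_at and 237891_at do not mark shared probes either, and both rose there.

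GDF15 encodes a secreted cytokine of the TGF-beta superfamily that is released by stressed cells and acts on appetite through a brainstem receptor. In MCF10A its main probe set read 8.58, 8.44, 8.50 and 8.33 on vehicle and 11.51, 11.46, 11.42 and 11.52 with 2DG. The values in MDA-MB-231 were 6.96, 7.14, 7.09 and 7.15 on vehicle and 9.58, 9.58, 9.58 and 9.74 with 2DG. Groups were far apart in both lines, and the 2DG arrays of MDA-MB-231 stood above the vehicle arrays of MCF10A. The rises were 3.015 ± 0.058 (adjusted p = 2.08e-16) and 2.535 ± 0.058 (adjusted p = 6.12e-15), and the response was smaller in MDA-MB-231 by 0.48 (adjusted p = 0.000116). With the mean of the 3 probe sets of GDF15 this difference was -0.17 and did not pass (adjusted p = 0.06). The other probe sets, 221576_at and 229868_s_at, lay between 5.34 and 5.95 in all groups, and their changes were 0.18 to 0.285, of which that of 229868_s_at in MDA-MB-231 passed (adjusted p = 0.026). The large rise was thus read by 1 probe set, whose ID marks probes that may also match other transcripts.

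TP53INP1 encodes a nuclear protein that promotes p53-dependent cell death and takes part in autophagy. In MCF10A it read 7.52, 7.64, 7.70 and 7.63 on vehicle and 11, 10.97, 10.98 and 10.88 with 2DG, a rise of 3.335 ± 0.0579 (adjusted p = 6.61e-17). Readings in MDA-MB-231 were 6.76, 6.90, 7.01 and 7.06 on vehicle and 7.94, 7.96, 7.90 and 7.89 with 2DG, a rise of 0.99 ± 0.0579 (adjusted p = 2.68e-10). Every 2DG array was above every vehicle array of its line. The difference of response was -2.345 ± 0.0819 (MDA-MB-231 minus MCF10A, adjusted p = 1.56e-12), the largest difference of response among the 8 genes. Of its other probe sets, 244721_at rose by 0.18 and 0.22, and 235602_at, at 4.18 to 4.28 in all groups, passed in neither line.

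FAS is the cell surface death receptor that recruits FADD and caspase 8. In MCF10A it read 10.90, 10.95, 10.88 and 10.91 on vehicle and 11.44, 11.47, 11.61 and 11.48 with 2DG. MDA-MB-231 had readings of 7.51, 7.60, 7.60 and 7.43 on vehicle and 7.04, 6.98, 7.20 and 7.17 with 2DG. The groups did not overlap in either line, and they moved in opposite directions. The rise in MCF10A was 0.59 ± 0.0553 (adjusted p = 8.03e-08), the change in MDA-MB-231 was -0.44 ± 0.0553 (adjusted p = 3.46e-06), and the difference was -1.03 ± 0.0782 (adjusted p = 1.34e-08).

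Further probe sets of FAS bore on this split. In MCF10A, 215719_x_at and 216252_x_at rose by 0.59 and 0.56, and 204781_s_at, at 10.68 and 10.72, had a change of 0.035 that did not pass (adjusted p = 0.709). In MDA-MB-231 these 3 fell, 204781_s_at most (-1.16 ± 0.0642, from 6.93 to 5.77). The dimmest probe set, 233820_at, went the other way. It fell by 0.62 in MCF10A (adjusted p = 0.000145) and had a change of 0.225 in MDA-MB-231 (adjusted p = 0.12). It is the only FAS probe set whose ID does not mark shared probes. When those were left out, the sign for FAS thus changed in both lines, but the new value passed in MCF10A only.

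SPATA18, also called Mieap, encodes a p53-induced protein of mitochondrial quality control. In MCF10A it read 8.50, 8.37, 8.62 and 8.38 on vehicle and 10.02, 10.06, 9.98 and 10.12 with 2DG, a rise of 1.58 ± 0.131 (adjusted p = 1.67e-08). On the MDA-MB-231 arrays it read 3.87, 4.08, 3.41 and 3.41 on vehicle and 3.87, 3.67, 3.60 and 3.42 with 2DG. These values lie near the lowest of the arrays (2.38), and the groups overlapped. The change there was -0.05 (95% interval -0.33 to 0.225, adjusted p = 0.782). The difference of response was -1.63 ± 0.185 (adjusted p = 1.4e-06), and the other probe set, 230723_at, gave a rise of 1.105 in MCF10A, a change of -0.03 in MDA-MB-231 and a difference of -1.13. RMA compresses small signals, so a change at this level in MDA-MB-231 can be understated.

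ZMAT3 encodes a zinc finger RNA-binding protein that regulates splicing and transcript stability downstream of p53. In MCF10A it read 10.83, 10.78, 10.85 and 10.71 on vehicle and 11.85, 11.92, 11.85 and 11.85 with 2DG, a rise of 1.075 ± 0.0405 (adjusted p = 7.08e-13). In MDA-MB-231 it read 10.26, 10.30, 10.29 and 10.19 on vehicle and 10.59, 10.59, 10.49 and 10.57 with 2DG, a smaller rise of 0.30 ± 0.0405 (adjusted p = 7.33e-06). The groups did not overlap in either line. All 5 probe sets rose in MCF10A, by 0.435 to 1.405, and all 5 had a lower response in MDA-MB-231. There 4 rose, by 0.145 to 0.47, and 225725_at fell by 1.37 ± 0.0839, from 9.37 ± 0.0707 (SD, n = 4) to 8 ± 0.238. The mean of the 5 therefore had a change of -0.02 (adjusted p = 0.693) in MDA-MB-231.

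XPC is the damage sensor that starts global genome nucleotide excision repair. Its only probe set read 9.48, 9.52, 9.50 and 9.48 in MCF10A on vehicle and 10.04, 10.12, 10.07 and 10.03 with 2DG, a rise of 0.57 ± 0.0646 (adjusted p = 8.32e-07). In MDA-MB-231 it read 8.80, 8.89, 8.93 and 8.83 on vehicle and 7.87, 7.62, 8.02 and 7.73 with 2DG. The fall was larger than the rise in the other line, at -1.05 ± 0.0646 (adjusted p = 4.92e-10), with groups apart in both lines. The difference of response was -1.62 ± 0.0913 (adjusted p = 3.69e-10). The actin ratio of the MDA-MB-231 arrays moved with 2DG as given above. In the fit that included this ratio the change was -1.09 (adjusted p = 1.15e-07). In that line only vehicle replicate B had a ratio within the range with 2DG. That fit therefore cannot tell RNA integrity and 2DG apart there.

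TP53I3, or PIG3, encodes an oxidoreductase linked to reactive oxygen species. Its only probe set read 11.81, 11.74, 11.77 and 11.78 in MCF10A on vehicle and 11.99, 12.01, 11.98 and 12 with 2DG. The MDA-MB-231 arrays gave 8.66, 8.79, 8.78 and 8.63 on vehicle and 8.99, 8.92, 8.79 and 9.02 with 2DG, where the lowest 2DG array equalled the highest vehicle array. The rises were small in both lines, 0.22 ± 0.0496 (adjusted p = 0.00111) and 0.215 ± 0.0496 (adjusted p = 0.00147). The difference of -0.005 had a 95% interval of -0.15 to 0.14 (adjusted p = 0.967), so the data are compatible with differences within that range. Fitted with the actin ratio, the rise in MDA-MB-231 was 0.15 and did not pass (adjusted p = 0.0843).

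**Figure D2:**
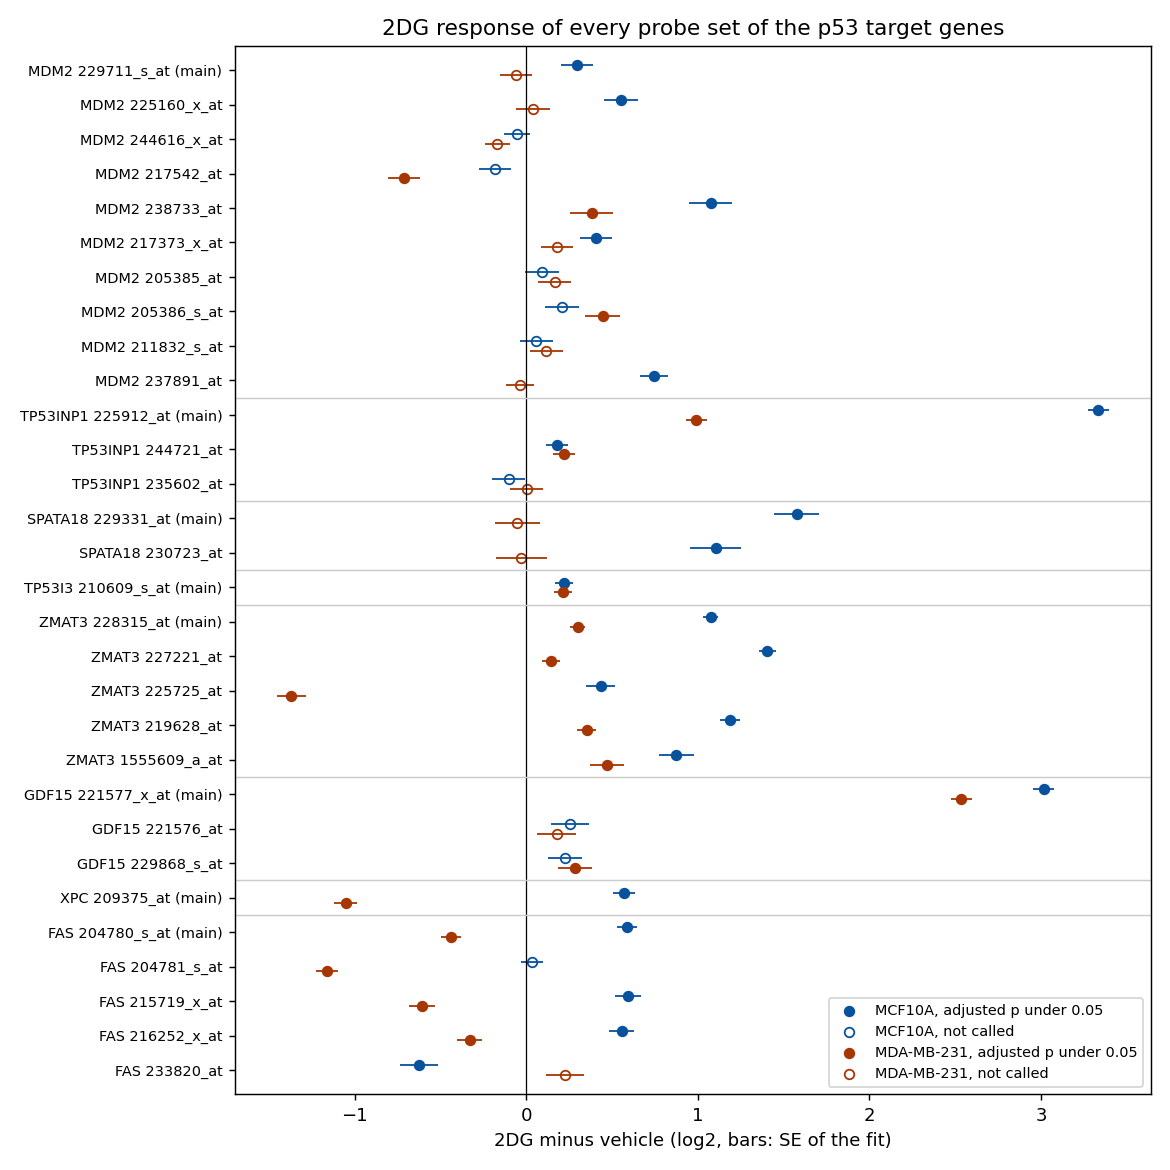
Change with 2DG (horizontal axis, log2, 2DG minus vehicle) of all 30 probe sets of the 8 genes in MCF10A (blue) and MDA-MB-231 (brown); bars are standard errors of the fit, filled points passed at an adjusted p under 0.05. In MCF10A 20 probe sets rose and 1 fell, and in MDA-MB-231 11 rose and 7 fell.

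Over the 30 probe sets, 20 rose, 1 fell and 9 did not pass in MCF10A, where 46% of all probe sets were called, 24.6% higher and 21.4% lower. In MDA-MB-231, 11 rose, 7 fell and 12 did not pass, where 43.6% of all were called, 22.8% higher and 20.9% lower. Probe sets of a gene share transcripts and are not replicates.

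By their main probe sets, the lines differed in their response for 7 of the 8 genes, all 7 with a lower response in MDA-MB-231. The count was 6 in the 10 fits without 1 array, listed above, in which MDM2 lost its call. Without shared probe sets 5 of 7 genes had a lower response, that of FAS was higher (0.848) and GDF15 did not pass (-0.077). Over all genes 45.8% differed, 22.3% with a higher and 23.6% with a lower response in MDA-MB-231. TP53INP1, SPATA18, XPC and FAS differed by more than 1 on the log2 scale, ZMAT3 by 0.775, GDF15 by 0.48 and MDM2 by 0.35. Of the 30 probe sets, 19 had a lower and 1 (233820_at of FAS) a higher response in MDA-MB-231, where 36.6% of all probe sets were called, 18.5% lower and 18.1% higher. The 7 differences and the responses of the lines rest on the same 16 arrays.

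**Figure D3:**
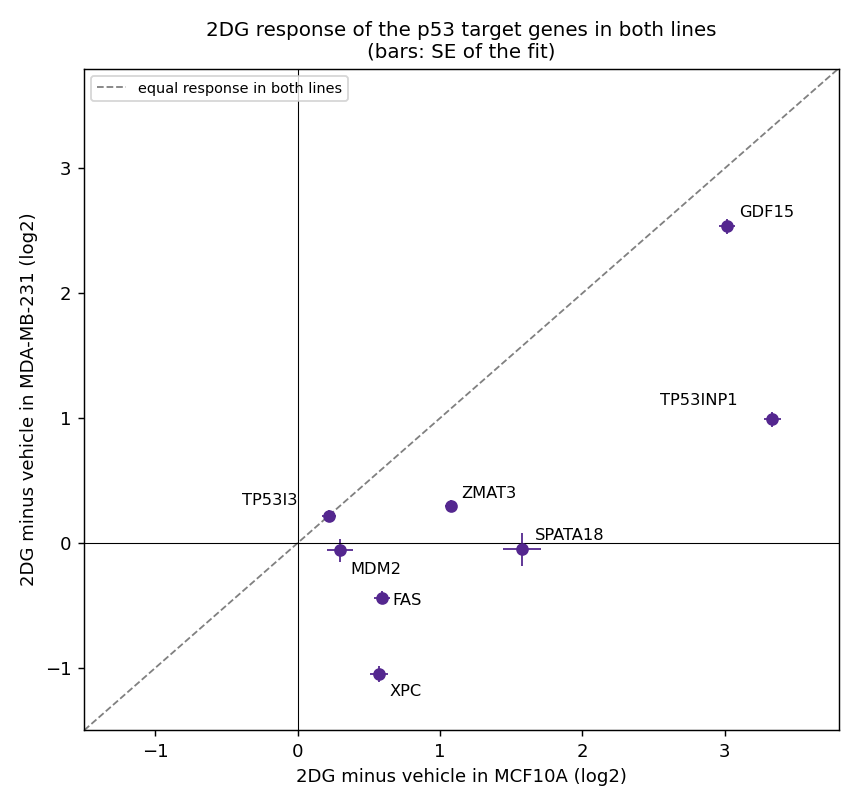
Change with 2DG in MCF10A (horizontal axis) against the change in MDA-MB-231 (vertical axis), both log2, for the main probe set of the 8 genes; bars are standard errors of the fit and the dashed line marks equal responses. TP53I3 lies on the line and the other 7 genes below it, with XPC and FAS below 0 in MDA-MB-231.

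On vehicle, all 8 genes were lower in MDA-MB-231 than in MCF10A, where 56% of all genes differed, 29.2% higher and 26.8% lower. FAS was 10.4-fold lower (-3.375 ± 0.0553) and TP53I3 8.34-fold (-3.06 ± 0.0496). SPATA18 differed by -4.775 on its main probe set, which was near the lowest array values in MDA-MB-231, and by -0.837 on 230723_at, so no fold is given for it. MDM2 (2.61-fold), GDF15 (2.60-fold), TP53INP1 (1.61-fold), XPC (1.55-fold) and ZMAT3 (1.45-fold) followed, with limma adjusted p of at most 2.22e-07 for the 8 genes. Of the 30 probe sets, 24 were lower, none was higher and 6 did not pass, where 46.3% of all were called, 22.2% lower and 24.2% higher.

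Under 2DG all 8 were again lower in MDA-MB-231, where 59.5% of all genes differed, 30.7% higher and 28.8% lower. Of the 30 probe sets, 25 were lower and 5 did not pass, where 51.5% of all were called, 27% higher and 24.5% lower. The gap of SPATA18 was -6.405 on its main probe set and -1.97 on 230723_at. The gaps were 21.1-fold for FAS, 8.37-fold for TP53I3 and 8.20-fold for TP53INP1. Those of XPC (4.77-fold), GDF15 (3.62-fold), MDM2 (3.33-fold) and ZMAT3 (2.48-fold) were smaller. Without shared probe sets 6 of 7 genes were lower in MDA-MB-231 both on vehicle and under 2DG, and GDF15 did not pass (-0.04 and -0.118). The group order thus put MCF10A with 2DG first for all 8. MCF10A on vehicle was second for 6, and MDA-MB-231 with 2DG was second for GDF15 and TP53INP1, whose values there (9.58 to 9.74 and 7.89 to 7.96) lay above those of MCF10A on vehicle. For MDM2 and SPATA18 the MDA-MB-231 groups did not differ beyond their spread.

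Other genes of the p53 network were read from lists chosen with earlier results of these data known. The counts below stand beside 29% of all genes higher and 25.2% lower in MCF10A and 25.5% higher and 25.4% lower in MDA-MB-231, and the medians beside 0.0225 and 0.0275 for all genes. Of 42 further p53 targets measured, 26 rose and 11 fell in MCF10A, with a median of 0.30, and 20 rose and 9 fell in MDA-MB-231, with a median of 0.17. In MCF10A the antiproliferative gene BTG1 (2.26) and the stress-induced sestrin SESN2 (1.385) rose most, and the kinase gene PLK2 (-1.30) and TIGAR (-1.165), which lowers glycolytic flux, fell most. In MDA-MB-231 the decoy death receptor TNFRSF10D (1.86) and SESN2 (1.64) rose most, and RRM2B (-1.24), a p53-induced subunit of ribonucleotide reductase, and the repair gene DDB2 (-0.785) fell most. RRM2B and DDB2 rose in MCF10A, by 0.595 and 0.39, and TIGAR rose in MDA-MB-231, by 0.94. These 3 thus had opposite signs in the lines (limma adjusted p of the difference at most 3.03e-11). Others of the 42 did too, among them E2F7 (-0.74 in MCF10A and 1.13 in MDA-MB-231) and TRIM22 (0.78 and -0.68). In the difference of response 17 of the 42 were higher and 16 lower in MDA-MB-231.

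CDKN1A, the gene of the cell cycle inhibitor p21 and the best known p53 target, rose in both lines. It went from 11.06 ± 0.0754 to 12.07 ± 0.0365 (SD, n = 4) in MCF10A and from 9.07 ± 0.0881 to 9.97 ± 0.0678 in MDA-MB-231. The rises of 1.01 and 0.90 differed by -0.11, which did not pass (adjusted p = 0.247). Of 15 genes repressed through p21 and the DREAM complex, all 15 fell in MCF10A, with a median of -3.14, and 14 fell in MDA-MB-231, with a median of -1.35. BUB1 (-4.56) and BIRC5 (-4.51) led in MCF10A, and KIF23 (-2.15) and CCNA2 (-1.94) in MDA-MB-231. The list is named by known regulation, and the part of p21 in these falls was not tested.

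Of 24 measured regulators of p53, 15 rose and 7 fell in MCF10A and 13 rose and 3 fell in MDA-MB-231. The kinase HIPK2 (1.425) and the acetyltransferase CREBBP (1.075) rose most in MCF10A, and the deacetylase SIRT1 (0.98) and the acetyltransferase EP300 (0.92) in MDA-MB-231. The checkpoint kinases CHEK1 (-1.38) and CHEK2 (-1.245) fell most in MCF10A, and ATR (-0.86) and CHEK1 (-0.59) in MDA-MB-231. MDM4, the partner of MDM2 in restraining p53, rose by 0.76 in MCF10A and 0.28 in MDA-MB-231, and the difference passed (-0.48, adjusted p = 0.000211). The gene that encodes p53 was not analysed here.

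Partners of single members were called at shares of which some were near those of all genes (54.2% in MCF10A and 50.9% in MDA-MB-231), so their counts are given as a description. Of 8 genes of the FAS pathway, 1 rose and 4 fell in MCF10A and 3 rose and 3 fell in MDA-MB-231. CASP8, the initiator caspase, fell in both (-0.58 and -0.84), and CFLAR, which blocks it, rose by 0.11 and 0.715. FADD, the adaptor, fell by 0.13 in MCF10A and rose by 0.42 in MDA-MB-231. Of 17 nucleotide excision repair genes beside XPC, 6 rose and 6 fell in MCF10A and 5 rose and 8 fell in MDA-MB-231. LIG1, the ligase that seals the repaired strand, fell in both (-1.36 and -1.275), ERCC6 rose in both (0.86 and 1.22), and XPA, the damage verifier, fell in both (-0.35 and -1.085). Of 9 genes of the BTG and TOB family and the deadenylases they bind, 5 rose and 2 fell in MCF10A and 4 rose and 3 fell in MDA-MB-231, with TOB1 up by 0.77 and 1.515 and BTG3 down at -0.435 and -0.78.

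Stress genes that moved beside GDF15 were those of ATF4 and CHOP, of which all 10 rose in both lines, with medians of 1.70 and 1.77. SESN2 is in this list and in that of further p53 targets. DDB2 and BTG1 are also among the further p53 targets and in the repair and BTG lists, so the list counts are not independent. ATF3 rose by 3.698 and 2.88, DDIT3, which encodes CHOP, by 3.10 and 1.625 and CHAC1 by 2.375 and 2.61. Their part in the rise of GDF15 was not tested.

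**Figure D4:**
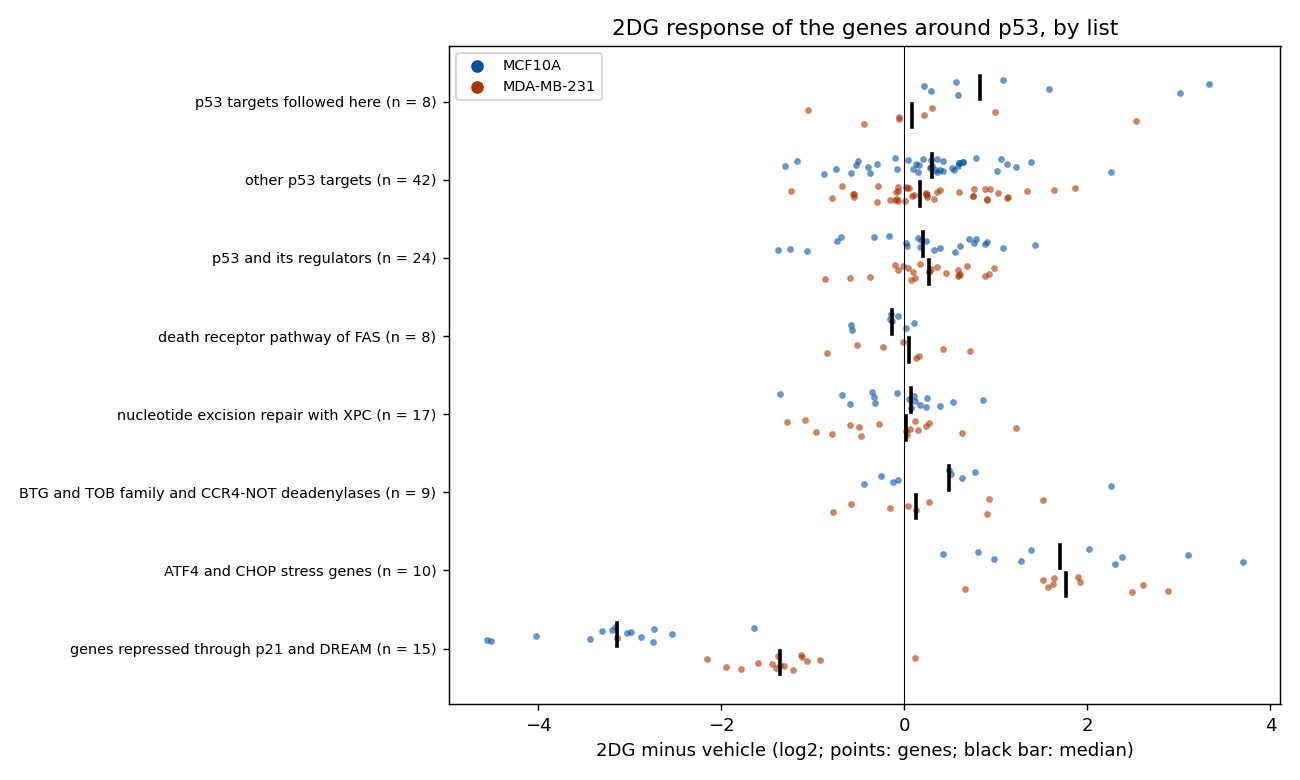
Change with 2DG (horizontal axis, log2) of the genes of 8 lists around p53 (vertical axis, with the number measured) in MCF10A (blue) and MDA-MB-231 (brown); points are genes and black bars medians. The 8 p53 targets have a median of 0.83 in MCF10A and 0.08 in MDA-MB-231, and the genes repressed through p21 and DREAM medians of -3.14 and -1.35.

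The genes most like each member over the 16 arrays were found by the Euclidean distance between values centred on each gene's mean, given here per array as a root mean square. ZMAT3 was closest to LMBRD1 (0.074), a lysosomal membrane protein gene, and EFCAB7 (0.084), and TP53I3 to SQLE (0.088), an enzyme of cholesterol synthesis, and the vitamin D receptor gene VDR (0.118). MDM2 was closest to the repair gene RAD50 (0.132) and MGST3 (0.134), XPC to MRTFB (0.134) and PBXIP1 (0.14), and FAS to PATJ (0.159) and PIR (0.179). TP53INP1 was closest to PAQR6 (0.173) and SYNE2 (0.214), GDF15 to the aldo-keto reductase gene AKR1C3 (0.229) and ARRDC4 (0.32), and SPATA18 to FXYD3 (0.241) and CSGALNACT1 (0.258). None of these neighbours was another p53 target of the 9.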

How the data were processed

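Biotin-labelled RNA of 16 samples was hybridised to 1 array each, per the labels' protocols. The deposited values are log2 probe set summaries that the authors made with RMA, per the submitters' processing notes; the version, and whether all arrays were normalized together, are not given in the sources used here. Of 54675 probe sets, 41091 had 1 gene in GEO's platform annotation, 41037 of which matched RefSeq (GRCh38.p14) by Entrez number. The 1801 with several genes and the 11721 without a row gave no gene values and entered only the second fit given below. Each of the 19775 genes took its brightest probe set. The fit used limma 3.58.1 (R 4.3.3) and 4 group means over 16 arrays (12 residual degrees of freedom), two-sided, with no filter. A second fit covered all 54613 non-control probe sets. Errors are standard errors of the fit unless marked SD, and the number of arrays limits the precision.

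The 4 replicates of a group are called independent biological replicates in the series' design text. No arrays held near-identical values (mean absolute difference within groups 0.116 to 0.161). The members and lists were chosen with earlier results of these data known. Genes named from lists around p53 were the 2 called genes with the largest rise and the 2 with the largest fall per list and line. In the FAS, repair and BTG lists only some of these were named. MDM4 and CDKN1A were added, and others were named for their role or sign after their values were seen. Likeness was computed for members whose group means span at least 1, with 2 genes each. On simulated data with 200 genes changed in MCF10A among 19775, 50% of those changed by 0.25, 96% by 0.5 and 100% by 1 or 2 were recovered. Alternatives were leaving out each array, a replicate block, eBayes with trend and robust, no dim genes, 2 other probe set rules, 2 normalizations, the actin ratio as a covariate and fits on 8 arrays.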

Additional observations from a re-analysis of the deposited data

Results flagged for a closer look

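In 3 of the 32 groups of 4 values tested, 1 array stood apart from the other 3 by Dixon's test at the 95% level, which chance flags in about 1 of 20 groups. MDM2 read 11.58 in MCF10A 2DG replicate D, beside 11.76 to 11.79. ZMAT3 read 11.92 in MCF10A 2DG replicate B, beside 11.85 in the others. GDF15 read 9.74 in MDA-MB-231 2DG replicate D, beside 9.58 in the others. These gaps are small beside the responses of ZMAT3 and GDF15, and leaving out each of these arrays kept the call of the 2DG response of its gene in its line. By the same test over 4 groups, the actin 3'/5' ratio of 1 array stood apart, MDA-MB-231 vehicle replicate B at 1.09, beside 0.38 to 0.47.

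On the main probe sets, the 2DG response differed between the lines (MDA-MB-231 minus MCF10A, interaction in limma) for 7 genes. Over all genes 45.8% differed, 22.3% with a higher and 23.6% with a lower response in MDA-MB-231. The differences were -2.345 for TP53INP1, -1.63 for SPATA18, -1.62 for XPC, -1.03 for FAS, -0.775 for ZMAT3, -0.48 for GDF15 and -0.353 for MDM2. As given above, MDM2 lost its call in most fits that left out an array. Without shared probe sets GDF15 did not pass and FAS had a higher response in MDA-MB-231. On the main probe sets of XPC and FAS every 2DG array lay above every vehicle array in MCF10A and below every vehicle array in MDA-MB-231.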

How the results depend on the processing

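Of 987 recomputed values of a gene in a comparison under an alternative, 963 kept their side of the threshold. These kept their direction too, except that a change of sign between values that both did not pass was counted among them. Of the others, 18 lost the call, 1 gained it and 5 that had passed changed sign, whether or not the new value passed. Leaving out the probe sets whose IDs mark shared probes changed most, and TP53I3 then had no value. The members higher in MCF10A were then 4 and those lower 1, those higher in MDA-MB-231 were 2, and 1 had a higher response in MDA-MB-231. By the brightest probe set left, MDM2 changed by -0.182 (adjusted p = 0.114) and FAS by -0.623 in MCF10A. FAS changed by 0.225 in MDA-MB-231, and the difference for FAS was 0.848. With the mean of all probe sets ZMAT3 changed by -0.021 in MDA-MB-231. GDF15 did not pass in any comparison without shared probe sets, with changes of 0.255 and 0.178 on its dim remaining probe set. The only call that leaving out an array ended was the difference for MDM2, between -0.429 and -0.289. The replicate block changed no call. With the block 8 members rose in MCF10A, 4 rose and 2 fell in MDA-MB-231 and 7 had a lower response there. Same-lettered arrays deviated together by r of -0.099 to 0.088. Between vehicle and 2DG in MCF10A, r was above that of any other letter for A (0.085), C (0.071) and D (0.088). It was not for B (0.04 against 0.069), nor for any letter in MDA-MB-231. Whether a letter stands for a shared culture or day cannot be told from these values. These values have no detection call, so the dim probe sets of SPATA18, GDF15 and MDM2 bound their changes poorly.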
